A study of Mus musculus with 40 samples.

Results

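The data described here are the transcript levels of 10 genes for leukocyte adhesion molecules and tetraspanins in CD11b+ cells of mouse brains with experimental gliomas. The genes were taken by name (Pecam1, Anpep, Icam1, Icam2, Vcam1, Selplg, Cd44, Cd9, Cd81 and F11r) from the 54513 rows of each of 3 deposited tables, and all 10 were found in every table. Adhesion molecules of the immunoglobulin family, such as ICAM-1, VCAM-1 and PECAM-1, bind integrins or each other and hold leukocytes to vessel walls and to neighbouring cells. PSGL-1 (Selplg) carries the sugars that selectins bind, and CD44 binds hyaluronan of the matrix. Tetraspanins such as CD9 and CD81 arrange integrins and other receptors in the plane of the membrane, and both are abundant in resting microglia, the resident macrophages of the brain.

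RNA was sequenced from cells sorted for CD11b, a marker of microglia, monocytes, macrophages and granulocytes, in 35 samples of 3 experiments, all on male mice of 10 to 12 weeks. Per the paper, the cells were sorted from naive or tumor-bearing brain hemispheres and not from tumors alone. GL261 is a mouse glioma line that grows in immunocompetent C57BL/6 mice; here it carried tdTomato and luciferase. At 21 days post implantation (DPI) there were 3 samples each of naive C57BL/6 mice and of GL261-bearing C57BL/6 mice given vehicle, 7aaRGD or 7aaRAE, each sample pooled from 2 animals. The peptide 7aaRGD holds the integrin-binding motif RGD, and 7aaRAE is its control with RGD changed to RAE. Peptides (2 mg/ml) or water as vehicle were infused into the tumor from osmotic pumps, so every group but the naive mice carried a pump. The mice sampled at 28 DPI also bore GL261 and were C57BL/6 per the paper. At 28 DPI there were 4 vehicle, 4 7aaRGD, 3 anti-PD-1 (10 mg/kg, an antibody against the PD-1 checkpoint receptor) and 3 combination samples (7aaRGD with anti-PD-1), each from a single mouse, and the groups without anti-PD-1 received control IgG. U87-MG is a human glioma line; with RFP it was implanted in Athymic Nude-Foxn1nu mice, which lack mature T cells, and 3 samples each of vehicle, 7aaRGD and 7aaRAE were taken at 21 DPI, with 2 animals per sample.

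The deposited labels gave nude mice for the later GL261 samples, whereas the paper gave the immunocompetent strain. The class II transcript H2-Ea-ps, which mice of the C57BL/6 haplotype do not make, was at 0 to 0.0976 RPKM in all 14 samples of the 28 DPI table and at 0 to 0.0554 RPKM in the 12 samples of the 21 DPI GL261 table, but at 22.5 to 374 RPKM in the 9 U87-MG samples. By this transcript the 28 DPI samples were like the C57BL/6 samples and unlike the nude ones, and they are taken here as C57BL/6. The number of genes with at least 1 RPKM (reads per kilobase of transcript, scaled to the reads of the library) was 9327 to 9820 in every sample of the 3 tables, while read depth per sample is unknown. Within the GL261 tables the differences between replicates spanned 7 of 8 and 9 of 10 possible dimensions, so the values had been altered before deposit. In the U87-MG table they spanned 6 of 6. Even so, 14.0% of U87-MG values in rows with signal lay under the constant of 2 that stands for 0 RPKM. RPKM cannot be negative, so the U87-MG values had been altered as well. No such step is described in the paper, and replicates may look more alike than they were, with p-values that are too small. No 2 samples held identical values.

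On mm10 (GENCODE M21) Pecam1 lies at chr11:106654217-106750628 and Icam2 at chr11:106377656-106388075, both on the minus strand. Anpep (chr7:79821803-79861059, minus) and Cd81 (chr7:143052739-143067934, plus) are also on 1 chromosome. Icam1 lies at chr9:21015985-21028817 (plus), Vcam1 at chr3:116109949-116129688 (minus), Selplg at chr5:113818536-113832644 (minus), Cd44 at chr2:102811141-102901665 (minus), Cd9 at chr6:125460266-125494791 (minus) and F11r at chr1:171437535-171464603 (plus).

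Promoter sequences are shown for 2 members that were higher in both groups given anti-PD-1 than in vehicle (Icam1 and Cd44), for the member with the largest difference from naive cells (Anpep) and for the tetraspanin with the largest difference between 7aaRGD and vehicle (Cd9). Each is 300 bases on GRCm38.p6 from RefSeq, from 250 before to 50 after the start that RefSeq gives the gene, read 5′ to 3′ on its own strand. For Anpep that start lies inside the GENCODE span given above, so its window is not at the GENCODE start. RefSeq entries were matched by symbol for 6 of the 10 members. Capitals mark the letters of 3 motifs searched on both strands: a kappaB form GGNNTTTCC, found in 5.82% of all 32851 promoters of this length, a gamma-activated form TTCNNNGAA (8.30%) and the PU.1 core GAGGAA (28.3%).
Icam1, chr9:21015690-21015989, plus strand: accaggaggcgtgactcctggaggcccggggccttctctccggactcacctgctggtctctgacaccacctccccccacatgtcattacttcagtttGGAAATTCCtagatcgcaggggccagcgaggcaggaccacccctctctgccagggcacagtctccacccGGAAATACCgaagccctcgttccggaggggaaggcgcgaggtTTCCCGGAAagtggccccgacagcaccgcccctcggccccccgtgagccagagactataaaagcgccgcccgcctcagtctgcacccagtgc
Cd44, chr2:102901616-102901915, minus strand: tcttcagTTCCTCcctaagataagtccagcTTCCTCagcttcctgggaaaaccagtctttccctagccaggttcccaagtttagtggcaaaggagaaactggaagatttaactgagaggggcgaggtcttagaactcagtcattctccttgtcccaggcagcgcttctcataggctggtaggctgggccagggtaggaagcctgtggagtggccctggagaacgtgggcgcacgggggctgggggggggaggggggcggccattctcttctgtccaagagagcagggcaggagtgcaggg
Anpep, chr7:79848161-79848460, minus strand: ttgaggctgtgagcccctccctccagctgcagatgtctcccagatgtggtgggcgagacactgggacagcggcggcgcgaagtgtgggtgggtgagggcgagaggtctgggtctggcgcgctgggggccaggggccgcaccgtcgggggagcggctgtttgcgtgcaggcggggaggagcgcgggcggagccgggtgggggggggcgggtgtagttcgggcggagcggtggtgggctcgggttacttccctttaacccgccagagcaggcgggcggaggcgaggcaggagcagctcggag
Cd9, chr6:125494711-125495010, minus strand: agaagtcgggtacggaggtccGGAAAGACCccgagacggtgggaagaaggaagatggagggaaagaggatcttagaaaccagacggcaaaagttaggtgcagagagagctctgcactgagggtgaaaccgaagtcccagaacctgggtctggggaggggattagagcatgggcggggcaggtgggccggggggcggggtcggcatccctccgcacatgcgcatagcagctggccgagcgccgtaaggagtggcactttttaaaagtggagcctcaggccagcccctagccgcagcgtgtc
In the Icam1 window the kappaB letters stood at bases 98 to 106 and 167 to 175, and the gamma-activated letters at 209 to 217, with no overlap among them. The Cd44 window held the PU.1 letters at bases 8 to 13 and 31 to 36, and the Cd9 window held the kappaB letters at bases 22 to 30. The F11r window held 1 PU.1 match, and the Anpep and Cd81 windows held none of the 3. Such a match describes letters and is not a measured binding site.

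The first comparison sets the tumor-bearing hemisphere against the naive brain. At 21 DPI, CD11b+ cells of hemispheres with vehicle-treated GL261 tumors were compared with CD11b+ cells of naive brains. The cells of tumor-bearing hemispheres had more Anpep, Cd44, Icam2, Vcam1 and Icam1 RNA, and less Selplg, Cd81, F11r and Cd9. In this comparison 9 of the 10 members passed the test, 5 higher and 4 lower; across all 9728 genes tested 82.9% passed, with 34.6% higher and 48.2% lower (41% and 40.1% after TMM scaling), so the share of members that passed is close to that of all genes. Changes are given as log2 differences of RPKM + 1 with their SE, from limma with Benjamini-Hochberg adjustment over all genes tested (threshold 0.05). The median over all genes was -0.143 on this scale and 0.0062 after TMM scaling, and none of the 10 directions changed with the scaling.

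Anpep encodes aminopeptidase N (CD13), a membrane peptidase of myeloid cells. It was at 0.691, 0.577 and 0.587 RPKM in the naive samples and at 143, 185 and 111 RPKM in the vehicle samples. The naive samples lay below 1 RPKM and every vehicle sample above 100, a ratio of means of 237. On the log2(RPKM + 1) scale, which understates changes of low genes, the rise was 6.48 (SE 0.16, adjusted p = 1.73e-08). Anpep ranked the 10th of the members in naive cells and the 2nd in vehicle cells.

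Cd44 encodes the main receptor for hyaluronan and rises in activated leukocytes. It was at 2.63, 2.43 and 2.86 RPKM in naive samples and at 73.6, 65.0 and 67.3 RPKM in vehicle samples. The groups lay far apart, with a ratio of means of 26.0 and a log2 rise of 4.26 (SE 0.069, adjusted p = 4.37e-09).

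Of the immunoglobulin-family molecules, Icam2, a ligand of the integrin LFA-1, was at 0.904, 0.899 and 0.876 RPKM in naive and at 4.77, 4.75 and 4.90 RPKM in vehicle samples. Vcam1, the ligand of the integrin VLA-4, was at 1.31, 1.81 and 1.66 RPKM in naive and at 12.5, 6.69 and 3.40 RPKM in vehicle samples. Icam1, a ligand of LFA-1 and Mac-1 that inflammatory signals induce, was at 49.9, 49.5 and 46.6 RPKM in naive and at 68.4, 72.7 and 79.2 RPKM in vehicle samples. The naive and vehicle samples did not overlap for any of the 3, though the vehicle samples of Vcam1 were widely spread. The log2 rises were 1.62 (SE 0.056) for Icam2, 1.57 (SE 0.35, adjusted p = 0.00297) for Vcam1 and 0.58 (SE 0.067, adjusted p = 6.44e-05) for Icam1.

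Pecam1 (CD31), which joins endothelial cells to each other and to passing leukocytes, was at 10.3, 8.62 and 8.83 RPKM in naive samples and at 16.5, 19.1 and 8.80 RPKM in vehicle samples. The third vehicle sample lay within the naive range, and the difference of 0.56 (SE 0.24) missed the threshold with an adjusted p of 0.0571. Pecam1 passed in 6 alternatives: TMM or median-of-ratios scaling, a fit of all 4 groups, the replicate block, 1 residual degree of freedom fewer, and the omission of that sample. The adjusted p was 7.43e-05 without that sample and ran up to 0.173 over all alternatives, and after TMM scaling all 10 members passed. F11r, the junctional adhesion molecule JAM-A, was at 367, 361 and 338 RPKM in naive and at 94.4, 91.5 and 125 RPKM in vehicle samples. It fell by 1.78 (SE 0.12, adjusted p = 2.11e-06), to a level 3.42 times lower.

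Selplg was the most abundant member in naive cells, at 1125, 1138 and 1051 RPKM, and stood at 159, 127 and 180 RPKM in vehicle samples. The tetraspanin gene Cd81 was at 664, 666 and 650 RPKM in naive and at 148, 105 and 129 RPKM in vehicle samples. Its relative Cd9 was at 351, 356 and 328 RPKM in naive and at 146, 113 and 131 RPKM in vehicle samples. In all of these genes each vehicle sample lay below each naive sample. The log2 change was -2.84 (SE 0.12, adjusted p = 2.04e-07) for Selplg, -2.38 (SE 0.11) for Cd81 and -1.41 (SE 0.094) for Cd9.

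The cell mixture differed between these groups. The summed level of the 8 microglial markers was 13976 to 14327 RPKM in naive and 1185 to 1720 RPKM in vehicle samples, with all 8 at 1 RPKM or more in both. The sum of the 8 monocyte and macrophage markers was 29.5 to 36.7 RPKM in naive and 1702 to 3430 RPKM in vehicle samples. Their part in the differences of the members was not tested, and in bulk samples fewer cells of a type and less RNA per cell cannot be told apart.

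**Figure D1:**
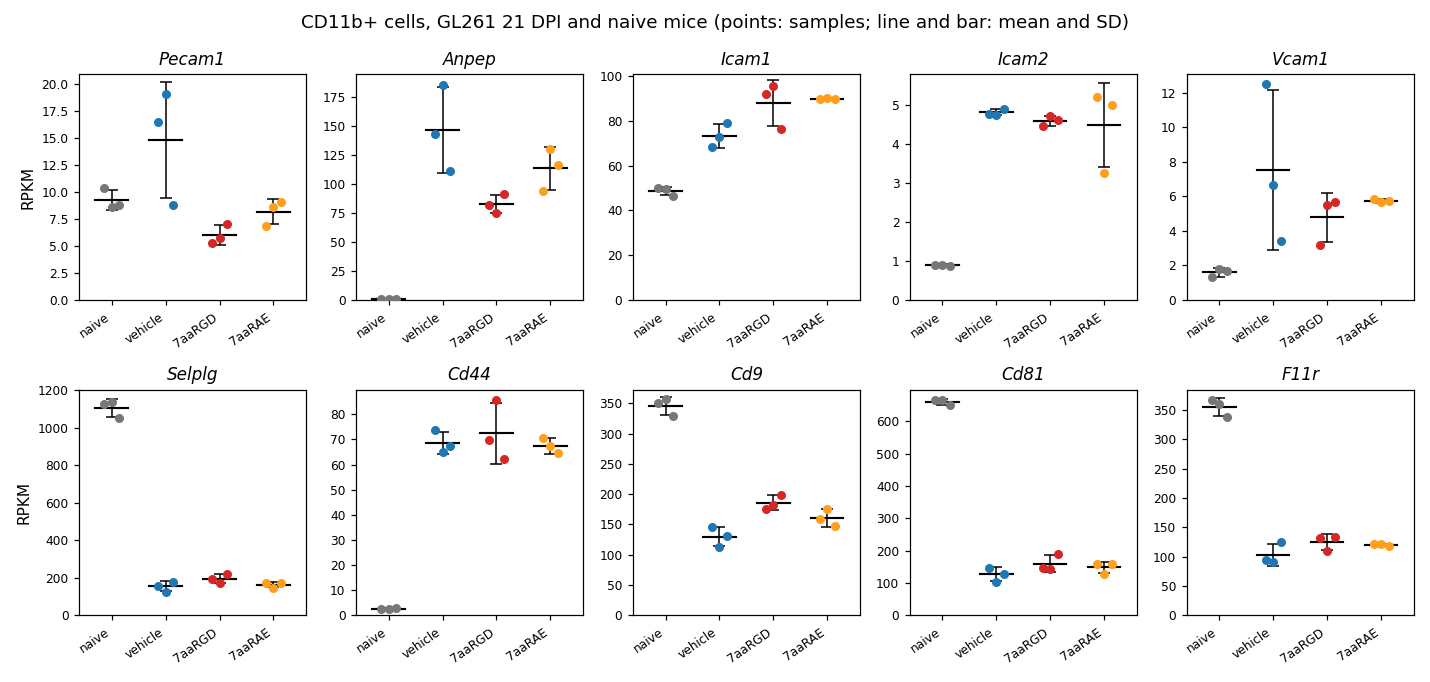
Level of each of the 10 members in RPKM (linear axis from 0) in every sample of the 21 DPI GL261 experiment, with 1 point per sample and the group mean with its SD. Naive samples stand apart for 9 genes, with Selplg at 1051 to 1138 RPKM and Anpep below 1 RPKM, and overlap the vehicle samples for Pecam1. Of all 9728 genes tested between naive and vehicle samples 82.9% passed, and the share of all genes that stand apart was not counted.

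The next comparisons concern the RGD peptide and its control at 21 DPI, where the peptide is meant to block the binding of tumor proteins to integrins of these cells. No member passed the test between 7aaRGD and vehicle, where 0.148% of all 9441 genes tested passed (14 genes, and 0 after TMM scaling), between 7aaRAE and vehicle (0% of genes) or between the peptides (0% of genes). At an unadjusted p under 0.05 there were 6 members and 1280 genes for 7aaRGD against vehicle, 3 members and 601 genes for 7aaRAE against vehicle, and 1 member and 521 genes between the peptides. Both peptide groups were set against the same vehicle samples. Pecam1, Anpep, Cd9 and Cd81 are among the genes the study named from these same samples, so their directions here are not independent evidence.

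The 3 members furthest from vehicle in the 7aaRGD samples were Pecam1, Anpep and Cd9. Pecam1 was at 5.31, 5.70 and 7.05 RPKM with 7aaRGD and at 6.87, 8.60 and 9.05 RPKM with 7aaRAE, against 16.5, 19.1 and 8.80 RPKM with vehicle. The 7aaRGD samples lay below every vehicle sample, whereas the 7aaRAE samples overlapped them. The log2 difference from vehicle was -1.11 (SE 0.23, adjusted p = 0.128) for 7aaRGD and -0.73 (SE 0.23, adjusted p = 0.718) for 7aaRAE. Anpep was at 82.0, 75.2 and 91.0 RPKM with 7aaRGD and at 93.6, 130 and 116 RPKM with 7aaRAE, against 143, 185 and 111 RPKM with vehicle. It was lower in each 7aaRGD sample than in any sample of the other tumor groups, with a difference from vehicle of -0.79 (SE 0.18, adjusted p = 0.146). Cd9 was at 176, 183 and 199 RPKM with 7aaRGD, at 159, 175 and 147 RPKM with 7aaRAE and at 146, 113 and 131 RPKM with vehicle. The 3 groups of Cd9 did not overlap, in the order 7aaRGD, 7aaRAE, vehicle, and the differences from vehicle were 0.52 (SE 0.10, adjusted p = 0.117) and 0.30 (SE 0.10, adjusted p = 0.718).

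Whether Pecam1 and Anpep passed depended on the third vehicle sample. Without it 2 members passed, both lower in 7aaRGD: Pecam1 with an adjusted p of 0.00584 and Anpep with 0.0307, and 125 genes in all. Over all alternatives the adjusted p ran from 0.00584 to 0.484 for Pecam1 and from 0.0307 to 0.498 for Anpep. Cd9 passed in none of them (lowest adjusted p 0.0831). The third vehicle sample had a summed level of the 4 border-associated macrophage markers of 14.1 RPKM, against 106 and 68.4 RPKM in the other vehicle samples. It was 9.97 to 28.5 RPKM with 7aaRGD and 11.2 to 20.9 RPKM with 7aaRAE. The monocyte and macrophage sum of that vehicle sample was 1702 RPKM, against 2510 and 3430 RPKM in the other vehicle samples and 1466 to 1663 RPKM with 7aaRGD. The part of these cells in the levels of Pecam1 and Anpep was not tested.

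A single pair of peptides was compared, which differ at the RGD motif, and the largest difference of a member was that of Anpep, at -0.44 with a 95% interval of -0.84 to -0.04 and an adjusted p of 0.857. For Pecam1 it was -0.39, with an interval of -0.91 to 0.14. For Cd9 it was 0.21, with an interval of -0.02 to 0.45. The adjusted p of all 10 members was 0.857 or more, and intervals of this width do not show that the peptides act alike.

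The other members stayed closer to vehicle. Icam1 was at 92.1, 95.7 and 76.5 RPKM with 7aaRGD and at 90.0, 90.0 and 89.9 RPKM with 7aaRAE, against 68.4 to 79.2 RPKM with vehicle, a difference of 0.26 (SE 0.090, adjusted p = 0.284) for 7aaRGD and 0.29 (SE 0.090, adjusted p = 0.718) for 7aaRAE. Selplg was at 174 to 220 RPKM with 7aaRGD and 127 to 180 RPKM with vehicle, and F11r at 110 to 134 RPKM and 91.5 to 125 RPKM. Both pairs of ranges overlapped. Cd81, at 142 to 189 RPKM with 7aaRGD and 105 to 148 RPKM with vehicle, also overlapped, with a difference of 0.33 (SE 0.15, adjusted p = 0.384). The differences of Cd44, Icam2 and Vcam1 from vehicle were 0.07, -0.05 and -0.45 for 7aaRGD, each with a 95% interval that held 0. Despite its small difference, Icam2 did not overlap between 7aaRGD (4.46 to 4.71 RPKM) and vehicle (4.75 to 4.90 RPKM). Icam1 did not overlap between 7aaRAE and vehicle. Lack of overlap with 3 samples per group is thus weak evidence, and its share over all genes was not counted. The Vcam1 samples with vehicle spanned 3.40 to 12.5 RPKM, those with 7aaRGD 3.17 to 5.66 RPKM and those with 7aaRAE 5.66 to 5.87 RPKM.

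**Figure D2:**
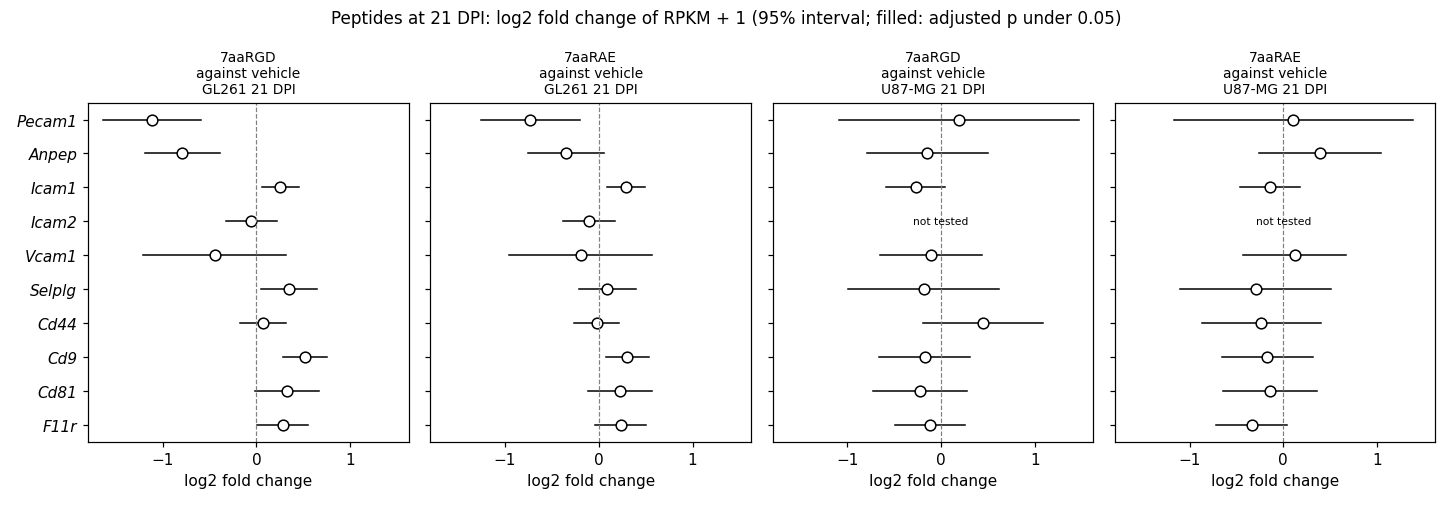
Log2 difference (RPKM + 1 scale) of each member between each peptide and vehicle in GL261 and U87-MG at 21 DPI, with bars for the 95% interval from limma; open points did not pass the test, and Icam2 was not tested in U87-MG. The 7aaRGD interval of Pecam1 at 21 DPI in GL261 runs from -1.64 to -0.59, and no point is filled.

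Checkpoint blockade was examined at 28 DPI. CD11b+ cells of GL261-bearing hemispheres had more Pecam1, Icam2, Cd44 and Icam1 RNA with anti-PD-1 than with vehicle, and less Vcam1. The combination with 7aaRGD showed calls in the same 5 genes. Against vehicle, 5 of 10 members passed with anti-PD-1 (4 higher and 1 lower), where 23.1% of the 9737 genes tested passed (10.8% higher and 12.2% lower). With the combination 5 of 10 passed (4 higher and 1 lower), where 43.3% of genes passed (17.5% higher and 25.8% lower, or 22.2% and 21.8% after TMM scaling). The share of members that passed with the combination, in any direction, is thus close to that of all genes. Both comparisons share the 4 vehicle samples. Where groups are said below not to overlap, the share of all genes that do not overlap was not counted. Icam1 was named by the study from these samples.

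Pecam1 was at 2.31, 5.38, 2.62 and 3.12 RPKM with vehicle and at 5.53, 9.84 and 10.2 RPKM with anti-PD-1. With the combination it was at 8.90, 10.2 and 7.53 RPKM. Each sample that received the antibody lay above every vehicle sample, the lowest of them at 5.53 RPKM only just above the highest vehicle sample at 5.38 RPKM. The rise over vehicle was 1.13 (SE 0.22, adjusted p = 0.00297) with anti-PD-1 and 1.22 (SE 0.22, adjusted p = 0.000666) with the combination, which are ratios of means of 2.53 and 2.64.

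Icam1 was at 48.6, 41.2, 47.2 and 45.8 RPKM with vehicle, at 76.6, 61.6 and 56.2 RPKM with anti-PD-1 and at 85.1, 75.1 and 77.8 RPKM with the combination. All treated samples lay above all vehicle samples, and the ranges of anti-PD-1 and the combination overlapped. The rise was 0.48 (SE 0.10, adjusted p = 0.00505) with anti-PD-1 and 0.78 (SE 0.10, adjusted p = 6.66e-05) with the combination. Icam2 was lower throughout, at 0.760, 1.49, 1.92 and 1.36 RPKM with vehicle, at 3.44, 2.26 and 3.14 RPKM with anti-PD-1 and at 2.04, 4.00 and 1.82 RPKM with the combination. Its anti-PD-1 samples lay above those of vehicle, but 1 combination sample did not. The rise was 0.74 (SE 0.20, adjusted p = 0.0172) and 0.58 (SE 0.20, adjusted p = 0.0300); over the alternatives the adjusted p ran from 0.0114 to 0.0667 and from 0.0174 to 0.167.

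Vcam1 went the other way. It was at 41.0, 52.5, 27.4 and 54.9 RPKM with vehicle, at 6.62, 18.6 and 30.8 RPKM with anti-PD-1 and at 10.02, 13.2 and 18.6 RPKM with the combination. The combination samples lay below every vehicle sample, while 1 anti-PD-1 sample lay within the vehicle range. The change was -1.37 (SE 0.41, adjusted p = 0.0274) with anti-PD-1, which was lost in 7 alternatives, the omission of each of 3 vehicle and 2 anti-PD-1 samples among them (highest adjusted p 0.112). With the combination it was -1.58 (SE 0.41, adjusted p = 0.00674), and it passed in all alternatives. Without the first anti-PD-1 sample 3 members passed against vehicle in place of 5; the calls of Vcam1 and Icam2 were those lost.

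Cd44 was at 30.2, 25.1, 24.6 and 34.7 RPKM with vehicle, at 40.8, 44.4 and 39.1 RPKM with anti-PD-1 and at 51.4, 46.2 and 38.6 RPKM with the combination. The treated samples all lay above those of vehicle. The rise was 0.53 (SE 0.13, adjusted p = 0.00999) and 0.65 (SE 0.13, adjusted p = 0.00127).

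None of the other 5 members passed against vehicle. Cd9 was at 148 to 205 RPKM with vehicle, 143 to 178 RPKM with anti-PD-1 and 154 to 161 RPKM with the combination. Cd81 was at 131 to 231 RPKM, 157 to 214 RPKM and 164 to 203 RPKM in the same groups. Their ranges overlapped between groups, and the 95% interval of the combination against vehicle was -0.38 to 0.23 for Cd9 and -0.37 to 0.50 for Cd81. Anpep was at 108 to 142 RPKM with vehicle, 117 to 146 RPKM with anti-PD-1 and 104 to 169 RPKM with the combination. Selplg was at 97.6 to 167 RPKM with vehicle and 167 to 202 RPKM with the combination, a difference of 0.52 (SE 0.21, adjusted p = 0.0572), which passed in 4 alternatives. F11r was at 90.7 to 108 RPKM with vehicle and 110 to 119 RPKM with the combination. These F11r ranges did not overlap, and the difference of 0.15 (SE 0.076, adjusted p = 0.125) passed only after TMM or median-of-ratios scaling (lowest adjusted p 0.0441).

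**Figure D3:**
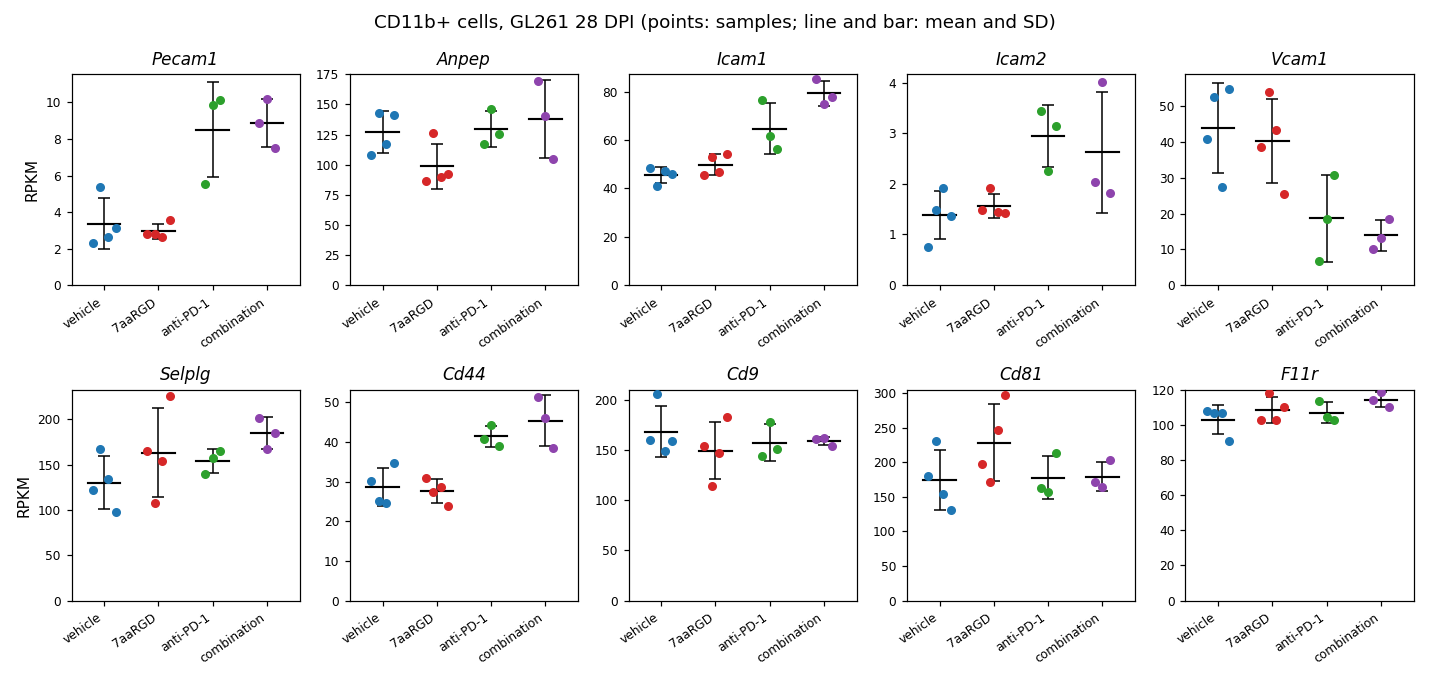
Level of each member in RPKM (linear axis from 0) in every sample of the 28 DPI GL261 experiment, with 1 point per sample and the group mean with its SD. Pecam1, Icam1 and Cd44 lie higher, and Vcam1 lower in most samples, in the groups that received anti-PD-1.

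Marker levels of other cells also differed among these groups. The sum of the 8 NK and T cell markers was 2.35 to 8.39 RPKM with vehicle, 2.00 to 46.8 RPKM with anti-PD-1 and 18.6 to 62.4 RPKM with the combination. The 4 border-associated macrophage markers summed to 77.3 to 116 RPKM with vehicle, 23.6 to 83.0 RPKM with anti-PD-1 and 26.8 to 59.7 RPKM with the combination, and the 8 monocyte and macrophage markers to 418 to 885, 646 to 1560 and 664 to 1509 RPKM. Means of at least 1 RPKM were reached by 2, 4 and 5 of the 8 NK and T cell markers and by 2 of the 4 border-associated macrophage markers in each of these groups. The 12 endothelial markers summed to 4.65 to 9.36 RPKM with vehicle, 7.43 to 15.9 RPKM with anti-PD-1 and 9.87 to 14.6 RPKM with the combination. Cldn5 and Cdh5, which define endothelial cells, had means of 0.933 and 0.527 RPKM with vehicle, 0.692 and 0.917 RPKM with anti-PD-1, and 0.603 and 0.610 RPKM with the combination. Of these 12 markers 3 reached the level for testing, and 2 passed higher than vehicle with anti-PD-1 and with the combination. They were the VEGF receptor genes Flt1, at means of 6.18 and 7.33 RPKM against 1.80 RPKM, and Kdr, at 1.53 and 1.61 RPKM against 0.973 RPKM; against 7aaRGD 1 of the 3, Flt1, was higher with the combination. The 6 dendritic cell markers summed to 1.21 to 2.86 RPKM with vehicle, 4.04 to 17.4 RPKM with anti-PD-1 and 12.4 to 16.6 RPKM with the combination, and both of those tested were higher in each treated group. The 8 microglial markers summed to 1333 to 1929, 1480 to 2193 and 1951 to 2110 RPKM in the same groups, with 1 of 8 higher with anti-PD-1 and 5 of 8 with the combination. The 4 markers common to CD11b+ cells summed to 1000.5 to 1310, 1179 to 1446 and 1449 to 1548 RPKM, with 2 and 3 of 4 higher. The sums of the microglial and common markers with the combination lay above every vehicle sample. The 5 oligodendrocyte markers summed to 23.1 to 35.2, 14.1 to 21.6 and 16.1 to 17.9 RPKM, with 2 of 4 tested lower in each treated group. The part of these cells in the changes of the members was not tested.

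The peptide was also given alone at 28 DPI. No member passed between 7aaRGD and vehicle, where 0.647% of genes passed (63 genes). At an unadjusted p under 0.05 there was 1 member, Anpep, among 1421 genes. Anpep was at 86.3, 126, 89.4 and 92.6 RPKM with 7aaRGD, against 108, 142, 117 and 141 RPKM with vehicle. The difference was -0.37 (SE 0.16, adjusted p = 0.287), with 3 of the 4 7aaRGD samples below the vehicle range. Pecam1 was at 2.79, 2.80, 2.66 and 3.55 RPKM with 7aaRGD, within the vehicle range, and its difference of -0.10 had a 95% interval of -0.53 to 0.34. Cd9 was at 114 to 183 RPKM with 7aaRGD, a difference of -0.18 with an interval of -0.46 to 0.10, and Cd81 at 171 to 297 RPKM, a difference of 0.39 with an interval of -0.01 to 0.79.

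Against 7aaRGD alone, 5 of 10 members passed with the combination (4 higher and 1 lower), where 36.6% of genes passed (13% higher and 23.5% lower, or 17.1% and 17.1% after TMM scaling). For only 10 members this count is not far from the share of all genes. The 5 members were Pecam1 (1.32, SE 0.22, adjusted p = 0.000597), Cd44 (0.69, SE 0.13, adjusted p = 0.00124), Icam1 (0.66, SE 0.10, adjusted p = 0.000401), Anpep (0.47, SE 0.17, adjusted p = 0.0418) and Vcam1 (-1.46, SE 0.41, adjusted p = 0.0131). The Pecam1, Cd44, Icam1 and Vcam1 samples of these groups did not overlap, whereas those of Anpep did. How many of all genes tested did not overlap was not counted, so this adds little to the calls. The Anpep call was lost in 8 alternatives (adjusted p up to 0.204), among them the omission of any of 3 7aaRGD or 2 combination samples. Without the first combination sample 3 members passed in place of 5, and the calls of Anpep and Vcam1 were those lost.

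Between the combination and anti-PD-1 alone no member passed, and 0.0411% of genes did (4 genes). At an unadjusted p under 0.05 there were 1461 genes and 1 member, Icam1, with a difference of 0.30 (SE 0.11, adjusted p = 0.227) and a 95% interval of 0.06 to 0.54. The interval was -0.42 to 0.59 for Pecam1, -0.17 to 0.41 for Cd44 and -1.14 to 0.72 for Vcam1. The interaction term, which asks whether the effect of 7aaRGD differed with and without the antibody, passed in 0% of genes. It was under an unadjusted p of 0.05 in 794 genes and in 0 members. Among members the adjusted p ran from 0.642 to 0.982, with the largest interaction for Anpep at 0.44 (SE 0.24).

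**Figure D4:**
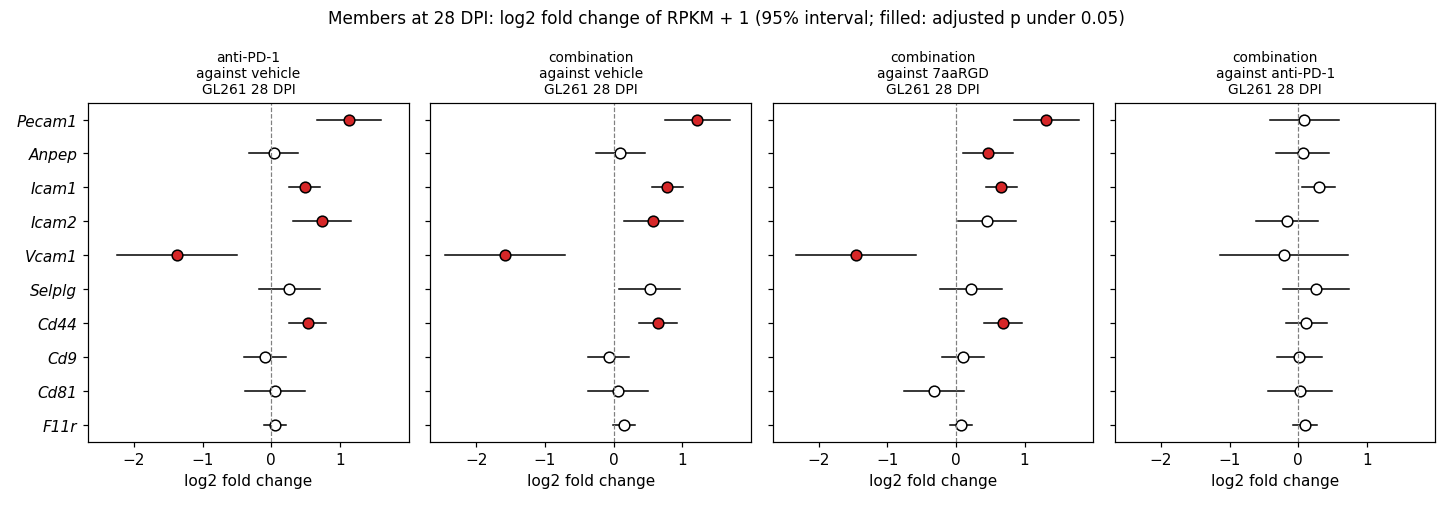
Log2 difference (RPKM + 1 scale) of each member in 4 comparisons at 28 DPI, with bars for the 95% interval from limma and filled points for an adjusted p under 0.05. Pecam1, Icam1 and Cd44 lie above 0 and Vcam1 below 0 in the comparisons of anti-PD-1 or the combination with a group without the antibody, while the intervals of Cd9 and Cd81 cross 0.

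In nude mice with U87-MG gliomas no member passed between 7aaRGD and vehicle (0% of the 9665 genes tested), between 7aaRAE and vehicle (0.0103% of genes, 1 gene) or between the peptides (0% of genes). Tests covered 9 members, since Icam2, at 0.522 to 1.16 RPKM, had a mean under 1 RPKM. Its 7aaRAE samples, at 0.522 to 0.625 RPKM, lay below those with vehicle, at 0.822 to 1.16 RPKM. The share of all genes separated in this way was not counted. At an unadjusted p under 0.05 there were 364, 746 and 327 genes in these comparisons and 0, 0 and 1 members. The member was Cd44, higher with 7aaRGD than with 7aaRAE by 0.68 (SE 0.28) with a 95% interval of 0.05 to 1.32 and an adjusted p of 0.9999.

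Pecam1 was widely spread within groups. It was at 37.6, 18.6 and 12.5 RPKM with vehicle, at 35.8, 9.30 and 38.9 RPKM with 7aaRGD and at 27.2, 13.4 and 30.4 RPKM with 7aaRAE. The samples of each group spanned much the same range, and the 95% interval of 7aaRGD against vehicle was -1.09 to 1.47, so changes of the size seen with anti-PD-1 in GL261 were not detectable here. Cd44 was at 7.45, 7.68 and 9.31 RPKM with vehicle, at 7.41, 12.3 and 16.1 RPKM with 7aaRGD and at 4.90, 10.1 and 6.08 RPKM with 7aaRAE. Anpep was at 3.43 to 4.95 RPKM with vehicle, 2.21 to 6.28 RPKM with 7aaRGD and 4.31 to 7.08 RPKM with 7aaRAE.

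Selplg and Cd81 were the most abundant members in these cells. Selplg was at 561, 560 and 419 RPKM with vehicle and at 652, 241 and 572 RPKM with 7aaRGD, and at 550, 311 and 417 RPKM with 7aaRAE. Cd81 was at 567, 590 and 508 RPKM with vehicle and at 607, 378 and 467 RPKM with 7aaRGD, and at 662, 375 and 514 RPKM with 7aaRAE. The second 7aaRGD sample was the lowest of its group for Selplg, Cd81, Pecam1, Cd9, F11r and Icam1. The same sample had the lowest microglial sum of its group, at 5587 RPKM against 7450 and 9243 RPKM, and the highest border-associated macrophage sum, at 121 RPKM. The second 7aaRAE sample was the lowest of its own group for the same 6 genes. It had the lowest microglial sum, at 6363 RPKM against 7116 and 7800 RPKM. Its border-associated macrophage sum was the highest, at 60.4 RPKM against 33.7 and 56.3 RPKM. The U87-MG columns carry no replicate number, so second means column order and does not match samples across groups. The part of these cells was not tested. Icam1 was at 42.2 to 65.8 RPKM, Vcam1 at 0.921 to 3.20 RPKM, Cd9 at 106 to 192 RPKM and F11r at 96.2 to 159 RPKM over all 9 samples, with overlap between all groups.

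**Figure D5:**
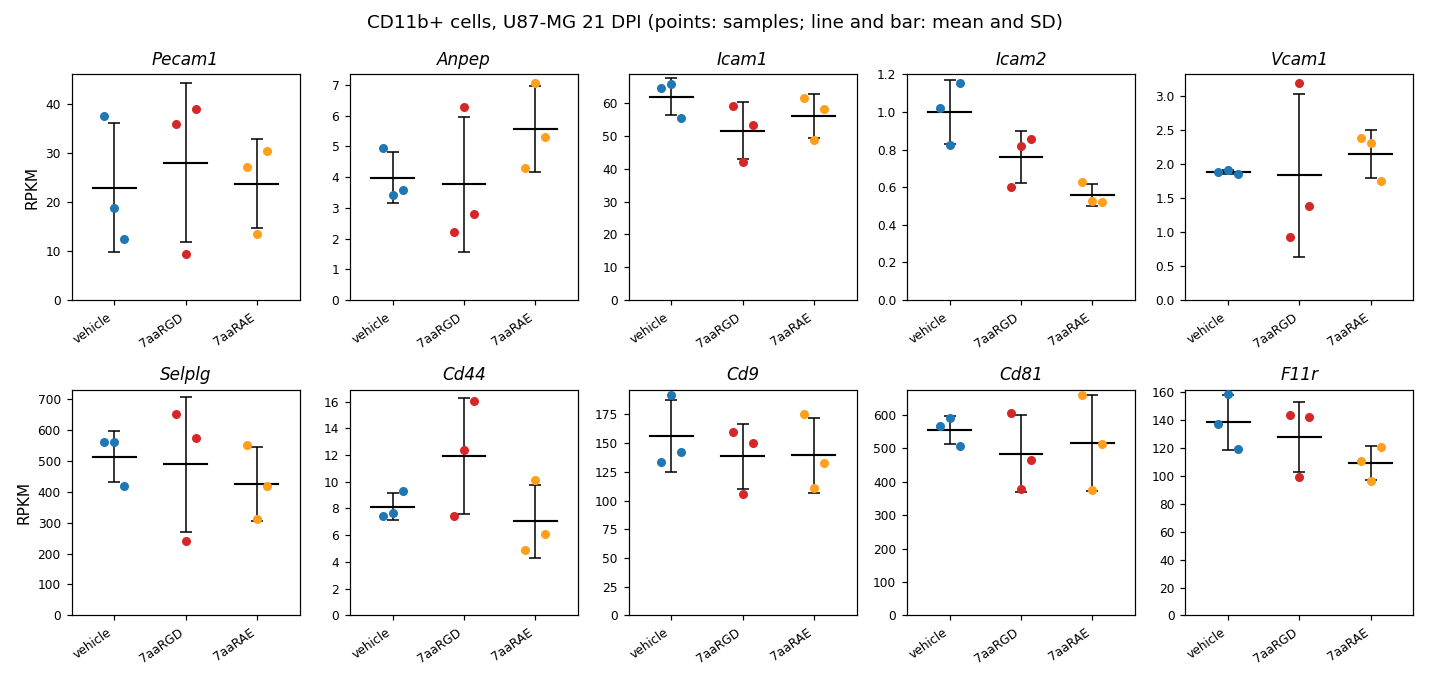
Level of each member in RPKM (linear axis from 0) in every sample of the U87-MG experiment, with 1 point per sample and the group mean with its SD. The groups overlap for 9 genes, Icam2 is lower with 7aaRAE than with vehicle, and Pecam1 runs from 9.30 to 38.9 RPKM within the 7aaRGD group.

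RPKM values are per length, so members can be ranked within a table. In naive cells the means ran from Selplg (1105 ± 47.1 RPKM, SD, n = 3) over Cd81 (660 ± 8.95), F11r (355 ± 15.5) and Cd9 (345 ± 14.8) down to Icam2 (0.893 ± 0.0150) and Anpep (0.618 ± 0.0635). F11r and Cd9 differed there by less than their SD. In the vehicle samples of GL261 at 21 DPI, Selplg (155 ± 26.8), Anpep (146 ± 37.0), Cd9 (130 ± 16.3) and Cd81 (127 ± 21.6) had overlapping spreads (mean ± SD), and Icam2 was the lowest at 4.81 ± 0.0788. At 28 DPI the vehicle order was led by Cd81 (174 ± 43.1, n = 4) and Cd9 (168 ± 25.3), again with overlapping spread, and Icam2 was the lowest at 1.38 ± 0.479. In U87-MG, Cd81 (555 ± 42.5) and Selplg (513 ± 81.5) led, and Anpep stood at 3.98 ± 0.840, against 146 and 127 RPKM in the vehicle groups of GL261. Tables were normalized separately and differ in tumor, strain and sampling, so these levels are set side by side with no test.

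Beside the members, 6 lists of genes with related roles were followed. Their counts stand against the shares of all genes tested: 82.9% passed for vehicle against naive (34.6% higher and 48.2% lower), 23.1% for anti-PD-1 and 43.3% for the combination against vehicle, and 36.6% for the combination against 7aaRGD. Counted in any direction, a list with most of its genes called in vehicle against naive cells is thus close to that background. By direction the lists differed, with their counts given below. Of counter-receptors and adhesion partners, 14 of 17 tested were higher and 3 lower in vehicle than in naive cells. Spp1, which encodes the CD44 and integrin ligand osteopontin, rose by 4.62 (94.8 against 2.69 RPKM). Sirpa, whose product binds CD47, fell by 1.61, and Itgam, the CD11b gene itself, fell by 0.95. With anti-PD-1 6 of 17 were higher and 1 lower, and with the combination 8 were higher and 3 lower (2 lower after TMM scaling), against vehicle. Itgb7, an integrin chain that pairs with the VCAM-1 receptor chain α4, rose by 0.80 with anti-PD-1 and by 0.94 with the combination. In the combination Cd24a, a selectin ligand, fell by 0.95 and Cd38 fell by 0.78; with anti-PD-1 alone Cd38 fell by 0.52. Against 7aaRGD, 6 were higher and 1 lower with the combination (7 and 1 after TMM scaling). Itgb7 rose by 1.02, Spn, the leukocyte sialoglycoprotein CD43, by 0.67, and Cd38 fell by 0.57.

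Of the tetraspanins and their partners other than Cd9 and Cd81, 3 of 19 were higher and 14 lower in vehicle than in naive cells, with a median of -1.43 against -0.143 over all genes (4 higher and 13 lower after TMM scaling). Tspan17 rose by 2.14 and Tspan32 by 0.66, while Tspan18 fell by 2.50 and Tspan7 fell by 2.36. At 28 DPI, 1 of 18 was higher and 3 lower with anti-PD-1, and 0 higher and 3 lower with the combination (2 higher and 3 lower after TMM scaling). Cd63, a tetraspanin of lysosomes and secreted vesicles, fell by 0.87 with anti-PD-1 and fell by 1.35 with the combination (182 RPKM with vehicle and 70.2 RPKM with the combination). Tspan4 changed by -0.83 and -1.18, and Tspan32 rose by 0.50 with anti-PD-1. Against 7aaRGD, 4 fell with the combination (3 after TMM scaling), with Cd63 at -1.12 and Tspan4 at -1.10.

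The list of membrane peptidases leaves out Anpep. In vehicle against naive cells 7 of 14 were higher and 4 lower, with Adam8 (4.56) and Mmp14 (3.78) the largest rises and Adam15 (-1.40) and Adam10 (-0.99) the largest falls. Against vehicle, 8 of 14 were higher with anti-PD-1 and 7 with the combination, with 0 lower, and medians of 0.38 and 0.39 against -0.00500 and -0.0487 over all genes. Ace, the angiotensin-converting enzyme, rose by 1.20 with anti-PD-1 and by 1.19 with the combination, Adam8 by 0.95 with anti-PD-1 and Rnpep by 0.78 with the combination. Against 7aaRGD, 5 were higher with the combination, led by Ace (0.86) and Ece1 (0.70).

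Transmigration and junction genes, the relatives of Pecam1 and F11r, divided. In vehicle against naive cells 3 of 9 were higher and 6 lower; Cd93 rose by 3.36 and Mcam by 1.63, while Jam2 fell by 3.53 and the tight junction gene Tjp1 fell by 3.24. With anti-PD-1 1 of 8 passed, Mcam at -0.74, and with the combination 2 were higher (Tjp1 by 0.85 and Jam2 by 0.73) and 1 lower (Mcam at -1.08). Against 7aaRGD, Jam2 rose by 0.55 and Mcam changed by -0.95 with the combination. Jam3, a relative of F11r, was the only gene of the 6 lists to pass between 7aaRGD and vehicle at 21 DPI, at 2.11 against 0.764 RPKM (0.84, SE 0.12, adjusted p = 0.0468). This call was lost after TMM scaling.

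Genes that build or sulfate the sugars of selectin ligands such as PSGL-1 were evenly divided between naive and vehicle cells, with 5 of 10 higher and 5 lower (4 lower after TMM scaling). Tpst1, a tyrosine sulfotransferase, rose by 1.98 and the sialyltransferase gene St3gal4 by 1.88, while St3gal6 fell by 3.51 and Gcnt1 fell by 2.16. At 28 DPI, 2 of 11 were higher with anti-PD-1, the fucosyltransferase gene Fut7 by 0.87 and Tpst1 by 0.46. With the combination 2 were higher (Fut7 by 0.86, Tpst1 by 0.53) and 2 lower (Fut4 at -0.50, B4galt1 at -0.42) against vehicle, with 1 lower after TMM scaling. Against 7aaRGD 2 were higher (Fut7 by 0.75, Tpst1 by 0.51) and 3 lower (B4galt1 at -0.54 and Gcnt1 at -0.48 the largest).

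The ERM list holds genes that link CD44, ICAMs and PSGL-1 to actin. In vehicle against naive cells 3 of 5 were higher and 2 lower, with Ezr (ezrin) at 3.68, Slc9a3r1 at 1.21, Rdx (radixin) at -1.28 and Nf2 at -0.36. Ezr changed by -0.38 with anti-PD-1, by -1.03 with the combination against vehicle (27.9 and 57.7 RPKM) and by -0.85 with the combination against 7aaRGD. In the combination 3 of 5 were lower against vehicle and 4 of 5 against 7aaRGD (2 after TMM scaling), and Slc9a3r1 changed by -0.44 and -0.32. The remaining comparisons had no call in any of the 6 lists.

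For each member the genes with the highest mean of the within-table Pearson r over the 12, 14 and 9 samples were taken from 9070 genes, as a description; at 21 DPI such an r mostly follows the gap between naive and tumor samples. They were Tjp1 (0.972) and Adgrg1 (0.969) for Selplg, Itgb5 (0.927) and Tmem119 (0.921) for Cd81, and Plxna1 (0.951) and Ahnak (0.940) for Cd44. Icam1 was most like Trim21 (0.933) and BC147527 (0.916), Vcam1 like Xpa (0.883), F11r like Cx3cr1 (0.843) and Ermp1 (0.842), and Cd9 like Gnas (0.863) and Samsn1 (0.811). Anpep was most like Clcn7 (0.836) and Bloc1s6 (0.813), and Pecam1 like Trip4 (0.786) and Mgl2 (0.719). Icam2 was under the minimum level in 1 table and was left out.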

How the data were processed

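RNA of CD11b+ cells from 35 samples in 3 tables was analysed; anti-PD-1 sample 4, combination sample 4 and 3 samples of naive nude mice are not analysed here. Per the paper's methods, libraries were made with a stranded mRNA kit, reads were trimmed with Trimmomatic and aligned to mm10 with STAR, and genes were counted by strand with HTSeq-count 0.11.1. The values deposited by the authors were RPKM plus a constant of 2, read from the values themselves since the paper does not describe this step; between 12.6% and 14.0% of values in rows with signal were under the constant and were set to 0 after subtraction. The plan had allowed for counts; none could be recovered, so no count test was run.

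Symbols were matched to the annotation for 53838 of 54513 rows. Log2(RPKM + 1) was fitted, for protein-coding genes whose mean over the fitted samples reached 1 RPKM, with limma 3.58.1 (lmFit, eBayes with trend) in R 4.3.3, with Benjamini-Hochberg adjustment over all genes tested and a threshold of 0.05. Tumor-bearing groups of a table were fitted together, and naive with vehicle alone. The fit was tested on simulated data. Groups came from the labels. At 21 DPI a sample pools 2 animals and at 28 DPI it is 1 mouse; nothing says that pools were prepared on separate days. Tables, intervals and figures were made with Python 3.11.15.

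The text names all 10 members and, from each of 6 lists of adhesion genes, up to 2 genes with the largest rise and 2 with the largest fall past the threshold; 2 genes that this rule or the likeness to a member names are not reported here. The members and lists were chosen with earlier results of these data known. Anpep overlaps Gm44974 on the same strand, so their reads could be shared. Alternatives were the pseudocount (0.1 or 5), the filter (none or a mean of 5 RPKM), unweighted TMM and median-of-ratios factors on RPKM, the samples fitted, a replicate block, 1 residual degree of freedom fewer and the omission of each sample.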

Additional observations from a re-analysis of the deposited data

Results flagged for a closer look

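In groups of 4 samples, a sample was marked when its gap to the nearest of the others exceeded Dixon's 95% critical value as a share of the range. This held for 4 of 20 sets of values, each being 1 member in 1 group. Only the vehicle and 7aaRGD groups at 28 DPI hold 4 samples, so no other groups could be marked. Chance marks about 1 in 20 independent sets. These sets come from the same mice and are not independent, so the count cannot be set against that rate. The lowest vehicle sample of F11r was at 90.7 RPKM, against 107 to 108 RPKM in the others. In the 7aaRGD group the highest sample of Pecam1 was at 3.55 RPKM, against 2.66 to 2.80 RPKM in the others. The highest 7aaRGD sample of Anpep was at 126 RPKM, against 86.3 to 92.6 RPKM. For Icam2 the highest 7aaRGD sample was at 1.92 RPKM, against 1.43 to 1.49 RPKM. The Anpep and Icam2 values came from the second 7aaRGD sample and the Pecam1 value from the fourth.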

How the results depend on the processing

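Among the counts of members that passed, 211 of 214 alternatives stayed within 1.5 times the reported count. The 3 that moved each left out a single sample: the count ran from 0 to 2 for 7aaRGD against vehicle in GL261 at 21 DPI, from 3 to 5 for anti-PD-1 against vehicle and from 3 to 5 for the combination against 7aaRGD. Of 2081 values of single members under the alternatives, 2043 kept their side of the threshold, 24 no longer passed, 14 newly passed and 0 called values reversed, while values near 0 that did not pass could change sign. In the deposited values, replicate numbers showed little pairing of samples. Of the correlations between deviations of same-numbered samples, 1 of 9 exceeded 0.1 at 21 DPI and 3 of 19 at 28 DPI. Best correlated with their own number were 1 of 9 and 3 of 14 samples. The undescribed step before deposit could have removed a deviation shared by such samples, so this check cannot show that they were unpaired. The number of all genes that passed ran from 0 to 125 (14 reported) for 7aaRGD against vehicle at 21 DPI, from 0 to 93 (63 reported) at 28 DPI, from 0 to 26 (4 reported) for the combination against anti-PD-1, from 1355 to 2380 (2245 reported) for anti-PD-1 against vehicle and from 5287 to 9916 (8060 reported) for vehicle against naive. For 7aaRAE against vehicle in U87-MG it ran from 0 to 32 (1 reported), and for 7aaRGD against 7aaRAE in GL261 at 21 DPI from 0 to 7 (0 reported). With the replicate block 10 members passed for vehicle against naive, 5 for anti-PD-1 against vehicle, 4 for the combination against vehicle, 5 for the combination against 7aaRGD and 0 in the other GL261 comparisons. For U87-MG alone, no paired analysis was possible because its columns carry no replicate number. Without counts, the precision that read depth gives to single values is unknown.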
